A study of Mus musculus with 18 samples.

Results

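The genes described here are the mouse Toll-like receptors *Tlr1* to *Tlr9* and *Tlr13*, followed through the differentiation of monocytes with GM-CSF. They were chosen by name, as 5 receptors of the cell surface (*Tlr1*, *Tlr2*, *Tlr4*, *Tlr5* and *Tlr6*) and 5 of endosomes (*Tlr3*, *Tlr7*, *Tlr8*, *Tlr9* and *Tlr13*). Of these 10 genes, 7 were found among the 20298 genes of the RNA-seq data. *Tlr7*, *Tlr8* and *Tlr13*, which lie on chromosome X, were not analysed here, so that 5 of 5 surface but 2 of 5 endosomal receptors (*Tlr3* and *Tlr9*) are described.

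RNA was sequenced from 18 libraries of C57BL/6 mouse Ly6C+ CCR2+ monocytes, in 6 groups of 3. The monocytes came from WT mice or from DKI mice, which carry knockin mutations in *Stat5a* and *Stat5b* that leave STAT5 dimers intact but prevent tetramers. They were taken without stimulation (WT day 0 and DKI day 0) or after culture with 20 ng/mL GM-CSF as monocyte-derived cells, MDCs (WT day 3, DKI day 3, WT day 6 and DKI day 6). The cells were enriched rather than sorted, from 3 independent experiments, and the age and number of the mice behind a library are not given in the sources used here. P-values therefore measure the spread between these libraries.

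The labels give liver as the tissue and the series description bone marrow. The summed level of 5 hepatocyte markers did not exceed 0.0470 RPKM in any library (3 of the 5 were at 0 in all 18), whereas 5 monocyte markers summed to between 1806 and 3039 RPKM on day 0. RPKM is reads per kilobase of transcript, scaled to the mapped reads of the library, so that levels of different genes can be set side by side. Depth was estimated at 29.6 to 43.0 M reads per library, at which 3 reads on a transcript of 1 kb amount to 0.101 RPKM at the lowest depth. The fewest reads behind any value of a receptor were about 4 for *Tlr3* (DKI day 0 replicate 1), 55 for *Tlr5* and 193 for *Tlr1*. These bounds cover counting error only.

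Toll-like receptors recognise conserved microbial molecules through leucine-rich repeats and signal through a cytoplasmic TIR domain. The surface receptors bind bacterial products: TLR2 pairs with TLR1 or TLR6 to bind lipopeptides, TLR4 with MD-2 binds lipopolysaccharide, and TLR5 binds flagellin. The endosomal receptors bind nucleic acids, TLR3 double-stranded RNA and TLR9 unmethylated CpG DNA, after transport by UNC93B1 and cleavage by lysosomal proteases. All but TLR3 signal through MYD88 to NF-kB and IRF factors, and TLR3 signals through TRIF (*Ticam1*). Monocytes and macrophages are rich in several of them.

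*Tlr1* and *Tlr6*, the alternative partners of TLR2, were the 2 of the 7 receptors called between genotypes in the unblocked fits of days 3 and 6. *Tlr3* was called on day 6 with the replicate number as a block. They are neighbours on chromosome 5 (GRCm38, 64924680 to 64933600 and 64953092 to 64970942, 19491 bases apart). Their promoter sequences are shown because both genes stood above WT in DKI MDCs. RefSeq gave windows of 300 bases, from 250 before to 50 after a transcription start (GRCm38.p6, minus strand), 2 for *Tlr1* and 2 for *Tlr6*. Of these 4 windows, the 3 that matched TTCNNNGAA, a form of the site bound by STAT dimers, or a form of the interferon-stimulated response element, GAAA repeated after a gap of 2 bases, are printed with the matches in capitals.
Tlr1, chr5:64932650-64932949: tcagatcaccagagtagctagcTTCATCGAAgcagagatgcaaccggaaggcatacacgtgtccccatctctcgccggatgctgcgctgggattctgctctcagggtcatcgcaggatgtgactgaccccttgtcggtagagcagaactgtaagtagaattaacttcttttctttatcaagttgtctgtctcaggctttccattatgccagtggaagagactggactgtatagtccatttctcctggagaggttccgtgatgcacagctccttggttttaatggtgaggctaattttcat
Tlr6, chr5:64959999-64960298: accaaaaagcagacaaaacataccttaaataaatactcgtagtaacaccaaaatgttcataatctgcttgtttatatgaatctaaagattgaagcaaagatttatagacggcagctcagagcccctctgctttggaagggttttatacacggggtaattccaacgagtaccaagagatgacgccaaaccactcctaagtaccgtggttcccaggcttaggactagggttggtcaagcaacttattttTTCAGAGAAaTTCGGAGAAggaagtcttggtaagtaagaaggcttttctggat
Tlr6, chr5:64959117-64959416: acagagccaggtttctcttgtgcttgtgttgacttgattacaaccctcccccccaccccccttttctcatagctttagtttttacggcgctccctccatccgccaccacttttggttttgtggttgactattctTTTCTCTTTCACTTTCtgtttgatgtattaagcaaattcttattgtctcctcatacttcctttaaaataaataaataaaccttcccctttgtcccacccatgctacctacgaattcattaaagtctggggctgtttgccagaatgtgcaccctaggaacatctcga

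The *Tlr1* window holds 1 match of TTCNNNGAA, TTCATCGAA, whose first base is at position -228 from the start. The first *Tlr6* window holds 2, TTCAGAGAA at position -3 and TTCGGAGAA at position 8, and the second *Tlr6* window holds 2 overlapping matches of the repeated GAAA, read as TTTC on the printed strand, at positions -116 and -110. Both strands were searched. Of 32851 mouse promoter windows of the same length, 8.30% held TTCNNNGAA and 3.44% held the repeated GAAA. Across the 8 windows of the 6 receptors with an entry (all but *Tlr4*), 2 held the first motif and 1 the second, and these letter matches say nothing about binding.

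On day 0 the order of the receptors was the same in both genotypes. *Tlr2* was highest, at 423 ± 60.4 RPKM (SD, n = 3) in WT and 348 ± 81.7 RPKM in DKI. *Tlr4* followed at 27.3 ± 14.1 and 28.3 ± 11.98 RPKM, and its libraries overlapped those of *Tlr9*, at 23.7 ± 5.40 and 22.6 ± 3.40 RPKM. *Tlr6* lay below these and above *Tlr5* and *Tlr1*, which overlapped each other. *Tlr3* was last, at 0.152 ± 0.130 and 0.139 ± 0.133 RPKM, from about 4 reads in DKI replicate 1 to about 49 in WT replicate 3. In the plot of levels by library *Tlr2* had the highest mean in all 6 groups, though its libraries overlapped those of *Tlr4* in WT on day 3 and in DKI on day 6. By mean level *Tlr1* ranked 6 of 7 on day 0 in both genotypes. On days 3 and 6 it ranked 5 in WT, where it overlapped *Tlr3*, and 3 in DKI, where it overlapped *Tlr4* and *Tlr9*.

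**Figure D1:**
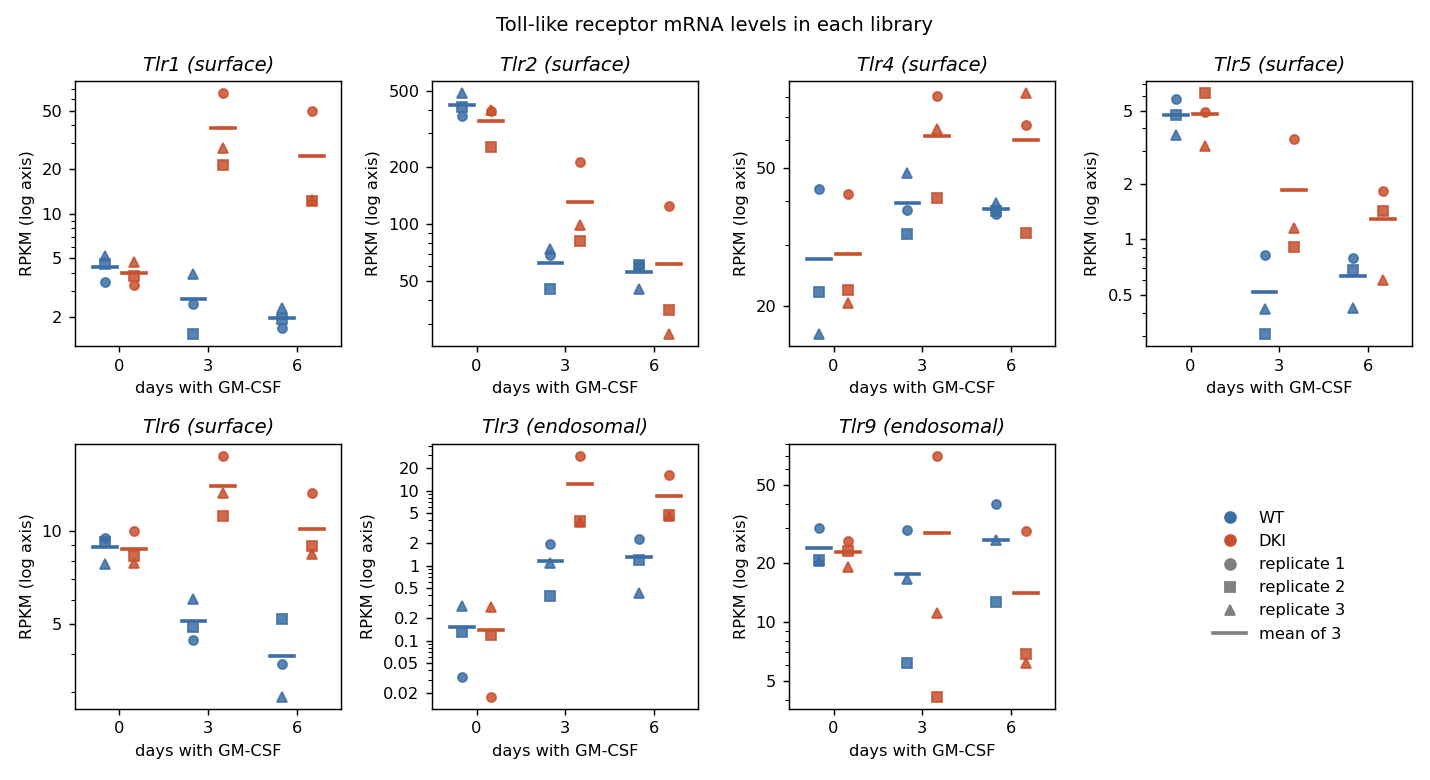
RPKM of the 7 Toll-like receptors on log axes against days with GM-CSF, with 1 point for each library, the shape giving the replicate, and a bar for the mean of 3. On days 3 and 6 all DKI points of *Tlr1*, *Tlr6* and *Tlr3* lie above all WT points, and those of *Tlr4* and *Tlr9* overlap with WT.

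The first comparison asked whether loss of STAT5 tetramers changes the receptors before GM-CSF is given. No receptor was called on day 0 with limma, where called means a Benjamini-Hochberg adjusted p under 0.05 over all genes fitted and a fold change above 1.5 on the log2(RPKM + 1) scale. None of the 9179 genes fitted was called either (0%), and 44 had an unadjusted p under 0.05. The log2 fold changes of the 6 receptors fitted lay between -0.30 (*Tlr2*) and 0.09 (*Tlr4*). The 95% interval was narrowest for *Tlr6*, from -0.37 to 0.33, and widest for *Tlr4*, from -0.93 to 1.11. *Tlr3* was under the limit of a mean of 2 RPKM in either genotype and was not fitted.

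After 3 days with GM-CSF, *Tlr1* and *Tlr6* were called higher in DKI, and no receptor was called lower. *Tlr1* was at 2.46, 1.53 and 3.89 RPKM in WT replicates 1 to 3 and at 65.7, 21.4 and 27.7 RPKM in DKI. Every DKI library was above every WT library, and replicate 1 was the highest in DKI. This was a log2 fold change of 3.32 (SE 0.45, 95% interval 2.25 to 4.40, limma adjusted p = 0.0135), and the ratio within the same-numbered pairs was 26.7, 13.9 and 7.13.

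*Tlr6* was at 4.44, 4.88 and 6.04 RPKM in WT and at 17.6, 11.2 and 13.4 RPKM in DKI on day 3. The groups did not overlap, and the DKI libraries differed less among themselves than for *Tlr1*. Their log2 fold change was 1.29 (SE 0.20, 95% interval 0.81 to 1.77, limma adjusted p = 0.0194). In the background of 9740 genes fitted, 3.21% were called higher and 4.21% lower, and the median log2 fold change was -0.11. The values of the WT and DKI libraries did not overlap for 36.3% of these genes, so that lack of overlap by itself is common on this day.

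With 3 libraries a group, the adjusted p on day 3 depended on single libraries. *Tlr1* had an adjusted p of 0.0571 without WT day 3 replicate 1 and 0.0522 without replicate 2, at log2 fold changes of 3.31 and 3.09. *Tlr6* had adjusted p of 0.0786, 0.0739 and 0.0525 without WT day 3 replicate 1, 2 or 3, at log2 fold changes of 1.21 to 1.39. Leaving out a DKI library ended neither call. The library names of replicate 1 on days 3 and 6, in both genotypes, hold an earlier year than those of the other 14 libraries. In the later-named libraries alone *Tlr1* was at 2.85 (adjusted p = 0.0363) and *Tlr6* at 1.04 (adjusted p = 0.0566).

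*Tlr1* and *Tlr6* also share sequence: 13.6% of the 50-base stretches of the *Tlr1* transcripts are found in those of *Tlr6*, the only pair among 21 pairs of receptors to share any. Levels of the 2 genes are uncertain where reads match both, and how such reads were counted is not given in the sources used here. The share of 13.6% of the recorded DKI level of *Tlr1* on day 3 amounts to 4.68 RPKM at the length of *Tlr6*. The difference between the *Tlr6* means was 8.96 RPKM. On day 6 the same values were 3.03 and 6.29 RPKM. If the shared reads had been counted to *Tlr6*, the recorded *Tlr1* level would already lack them. The amounts moved would then be larger, so these values are not an upper bound.

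The difference was still present on day 6. *Tlr1* was at 1.68, 1.95 and 2.32 RPKM in WT and at 49.8, 12.2 and 12.4 RPKM in DKI. All DKI libraries were above all WT libraries, again with replicate 1 the highest, a log2 fold change of 2.80 (SE 0.52, 95% interval 1.54 to 4.06, limma adjusted p = 0.0330).

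*Tlr6* on day 6 was at 3.70, 5.19 and 2.90 RPKM in WT and at 13.3, 8.95 and 8.42 RPKM in DKI. The groups did not overlap. The log2 fold change was 1.19 (SE 0.24, 95% interval 0.60 to 1.77, limma adjusted p = 0.0405). Of 9842 genes fitted on day 6, 2.72% were called higher and 4.82% lower, 37.2% had libraries that did not overlap, and the median log2 fold change was -0.17. Higher genes were 36.1% of those called, or 53.1% after the libraries were centred on their medians, a scaling under which both receptors kept their direction and their calls.

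The day 6 calls were the less firm, and *Tlr1*, at a mean of 1.98 RPKM in WT, passed the limit of 2 RPKM only through DKI. Without a single library the adjusted p of *Tlr1* was 0.112 (WT day 6 replicate 1), 0.0681 (WT replicate 2), 0.112 (WT replicate 3) and 0.0774 (DKI replicate 3). That of *Tlr6* was 0.130 (WT replicate 1), 0.134 (WT replicate 3), 0.0796 (DKI replicate 1), 0.0505 (DKI replicate 2) and 0.0896 (DKI replicate 3). In the later-named libraries alone *Tlr1* was at 2.08 (adjusted p = 0.0503) and *Tlr6* at 0.98 (adjusted p = 0.217). With no filter on low values they had adjusted p of 0.0708 and 0.0823.

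**Figure D2:**
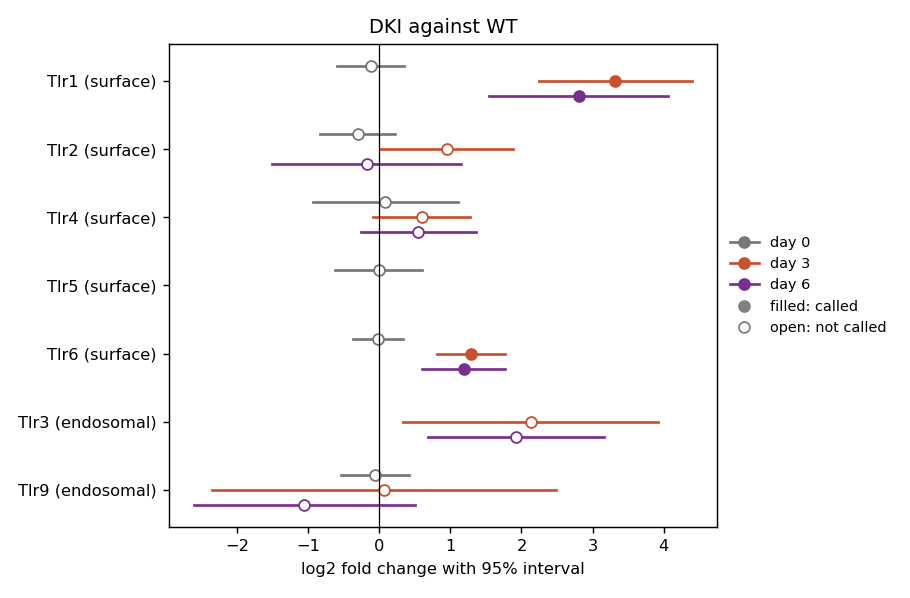
Log2 fold change of DKI against WT on the log2(RPKM + 1) scale for each receptor, with 95% intervals, on days 0, 3 and 6, where filled points were called and receptors under the limit of 2 RPKM on a day have no point. *Tlr1* and *Tlr6* are filled on days 3 and 6, at 3.32 and 1.29 and at 2.80 and 1.19, and all day 0 points lie near 0.

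*Tlr2*, the shared partner of both, was not called. On day 3 it was at 69.0, 45.9 and 73.7 RPKM in WT and at 211, 81.9 and 98.5 RPKM in DKI. The lowest DKI library was above the highest WT library, and the log2 fold change was 0.95 (SE 0.39, adjusted p = 0.185). On day 6 it was at 61.3, 61.1 and 45.8 RPKM in WT and at 125, 35.4 and 26.5 RPKM in DKI. DKI replicate 1 was above and the other two DKI libraries were below all WT libraries, and the log2 fold change was -0.18 (95% interval -1.505 to 1.15).

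*Tlr4* was at 37.9, 32.3 and 48.3 RPKM in WT and at 80.2, 40.8 and 64.4 RPKM in DKI on day 3. The groups overlapped through DKI replicate 2, and the log2 fold change was 0.60 (SE 0.28, adjusted p = 0.241). On day 6 it was 0.55 (SE 0.34, adjusted p = 0.328), with DKI replicate 2 below all WT libraries, and without that library 0.94 (adjusted p = 0.0349). *Tlr5* did not exceed 3.50 RPKM in any MDC library and was not fitted in these comparisons. It was at 0.824, 0.307 and 0.418 RPKM in WT and 3.50, 0.905 and 1.15 RPKM in DKI on day 3, where every DKI library was above every WT library. On day 6 it was at 0.795, 0.684 and 0.423 RPKM in WT and 1.82, 1.43 and 0.605 RPKM in DKI, and the groups overlapped.

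Among the endosomal receptors, *Tlr3* was at 1.93, 0.399 and 1.09 RPKM in WT and at 29.2, 3.95 and 3.79 RPKM in DKI on day 3. All DKI libraries were above all WT libraries, and DKI replicate 1 was far above the other two. The log2 fold change was 2.13 (SE 0.74, adjusted p = 0.138), and *Tlr3* passed the limit of 2 RPKM only through DKI. On day 6 it was at 2.25, 1.20 and 0.427 RPKM in WT and at 16.2, 4.77 and 4.61 RPKM in DKI, again without overlap. The log2 fold change was 1.92 (SE 0.52, adjusted p = 0.0700), and with the replicate number as a block the adjusted p was 0.0312.

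*Tlr9* was not called on any day. On day 3 it was at 29.5, 6.17 and 16.6 RPKM in WT and at 70.0, 4.14 and 11.02 RPKM in DKI. DKI replicate 1 was the highest of these libraries and DKI replicate 2 the lowest, and the log2 fold change of 0.06 had a 95% interval from -2.35 to 2.48. Without DKI day 3 replicate 1 the value was -0.99 (adjusted p = 0.415). On day 6 *Tlr9* was at 39.6, 12.6 and 26.1 RPKM in WT and at 29.0, 6.87 and 6.14 RPKM in DKI, lower in DKI in 3 of 3 same-numbered pairs, at -1.05 (SE 0.65, adjusted p = 0.330).

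DKI replicate 1 was also the highest DKI library for *Irf7* and *Cxcl10*, from the pathway lists, and for *Ifnb1*. *Irf7*, a transcription factor of the interferon response, was at 1423, 117 and 20.1 RPKM in DKI day 3 replicates 1 to 3, against 10.54, 1.03 and 5.32 RPKM in WT. *Cxcl10*, an interferon-induced chemokine, was at 469, 17.8 and 7.03 RPKM in the same DKI libraries. *Ifnb1*, interferon beta, was at 3.57, 0.264 and 0 RPKM. On day 6, DKI replicate 1 again had the most *Irf7*, at 752 RPKM against 43.9 and 60.0 RPKM. Their part in the levels of *Tlr3* and *Tlr9* was not tested. *Ifnb1* was chosen after its values were seen.

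Markers of cell types also moved with genotype. Of 6 moDC markers, 4 were called lower in DKI on each day (*Cd80*, *Ccr7*, *Ccl17* and *Cd209a*), and the sum of all 6 was 678 to 3158 RPKM in DKI against 11351 to 13402 RPKM in WT on day 3. The summed level of 5 macrophage markers was 1312 to 2290 RPKM in DKI and 468 to 853 RPKM in WT. *Mertk* and *Mrc1* were called higher on day 3 and *Mrc1* on day 6. The sum of 5 monocyte markers was 1398 to 2290 RPKM in DKI and 759 to 1140 RPKM in WT on day 3, and 1350 to 1628 RPKM and 611 to 1069 RPKM on day 6, without overlap on either day, and none of the 5 was called. In bulk RNA, more cells of a type and more RNA per cell cannot be told apart. Summed neutrophil markers were 515 RPKM in WT day 3 replicate 2, 401 and 493 RPKM in DKI day 3 replicates 1 and 2, and 25.4 RPKM or less in the other two day 3 libraries of WT and in DKI replicate 3, and no neutrophil marker was called. On day 6 they were 507 RPKM in DKI replicate 1, which was also the highest DKI library for every receptor but *Tlr4*, 165 RPKM in WT replicate 1 and 10.9 RPKM or less in the other day 6 libraries. B cell, T and NK cell and erythroid marker sums did not exceed 7.10, 9.17 and 0.113 RPKM in MDCs. Plasmacytoid and type 1 conventional DC marker sums reached 33.4 and 52.6 RPKM, in WT day 6, with *Pacsin1* and *Itgae* called lower in DKI on both days. The part of any of these cells in the receptor levels was not tested.

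The second comparison followed the receptors through the first 3 days with GM-CSF. In WT, 3 of the 6 receptors fitted were called, all lower, beside 22.8% of 9938 genes called lower and 20.3% called higher. *Tlr2* fell from 369.5, 412 and 489 RPKM on day 0 to the day 3 values given above, by 2.75 on the log2 scale (SE 0.22, limma adjusted p = 0.000212). *Tlr5* was at 5.75, 4.75 and 3.67 RPKM on day 0 and fell by 1.91 (SE 0.23, adjusted p = 0.000978), and *Tlr6* was at 9.54, 9.26 and 7.81 RPKM and fell by 0.69 (SE 0.17, adjusted p = 0.0133). *Tlr5* passed the limit of 2 RPKM only through day 0. For all 3 receptors every day 3 library was below every day 0 library. *Tlr1* was at -0.61 (adjusted p = 0.109), *Tlr4* at 0.61 (adjusted p = 0.181) and *Tlr9* at -0.63 (adjusted p = 0.323). Without WT day 0 replicate 1, which at 43.3 RPKM was the highest of its group, *Tlr4* was at 0.99 (adjusted p = 0.0135), and without WT day 3 replicate 3 *Tlr1* was at -0.85 (adjusted p = 0.0479).

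In DKI, 4 of 7 receptors were called between day 0 and day 3, with 3 higher and 1 lower, beside 13.1% of 9922 genes called higher and 21.1% lower. *Tlr1* rose from 3.29, 3.79 and 4.75 RPKM by 2.83 (SE 0.40, limma adjusted p = 0.00430), and this call held without any single library. *Tlr3* rose from 0.0178, 0.118 and 0.282 RPKM by 2.98 (SE 0.70, adjusted p = 0.0194). *Tlr4* rose from 42.1, 22.3 and 20.4 RPKM by 1.12 (SE 0.36, adjusted p = 0.0484), and the groups overlapped. *Tlr2* fell from 392, 254 and 398 RPKM by 1.503 (SE 0.39, adjusted p = 0.0271). *Tlr6* was at 0.61 (adjusted p = 0.0564), *Tlr5* at -1.09 (adjusted p = 0.0661) and *Tlr9* at -0.51 (adjusted p = 0.666).

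Several of the DKI calls rested on single libraries, and *Tlr3* passed the limit of 2 RPKM only through day 3 and *Tlr5* only through day 0. *Tlr3* had an adjusted p of 0.0593, 0.0615 and 0.0519 without DKI day 0 replicate 1, 2 or 3. *Tlr4* had 0.145 and 0.136 without DKI day 0 replicate 2 or 3 and 0.103 and 0.114 without DKI day 3 replicate 1 or 3. *Tlr2* had 0.0805 and 0.0839 without DKI day 0 replicate 1 or 3 and 0.0726 and 0.0760 without DKI day 3 replicate 2 or 3. Without DKI day 3 replicate 1, *Tlr5* was at -1.48 (adjusted p = 0.0123) and *Tlr9* at -1.57 (adjusted p = 0.0255), both called lower. After centring on medians, which made 51.8% of all called genes higher in place of 38.2%, *Tlr6* was called higher at 0.78 (adjusted p = 0.0448) and *Tlr2* was no longer called, at -1.33 (adjusted p = 0.0540).

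**Figure D3:**
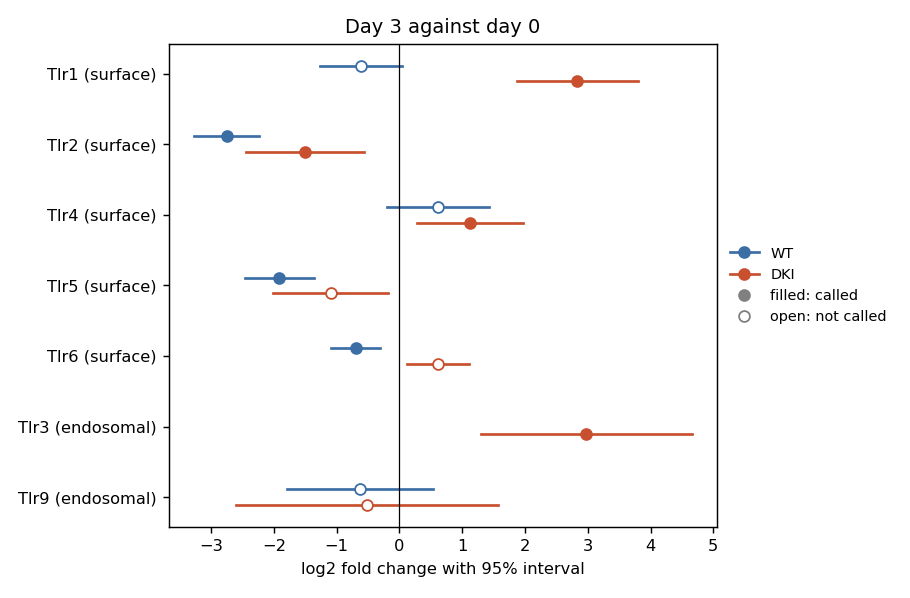
Log2 fold change of day 3 against day 0 on the log2(RPKM + 1) scale for each receptor in WT and in DKI, with 95% intervals, where filled points were called and *Tlr3* in WT was under the limit of 2 RPKM. *Tlr2* is left of 0 in both genotypes, at -2.75 and -1.503, and *Tlr1* is right of 0 in DKI at 2.83 and left of it in WT at -0.61, where it was not called.

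Between days 3 and 6 no receptor was called in either genotype. Of all genes, 0% of 9613 in WT and 0% of 9540 in DKI were called, with 722 and 93 at an unadjusted p under 0.05. The largest receptor values in DKI were -1.27 for *Tlr2* (95% interval -2.83 to 0.30) and -0.75 for *Tlr1* (95% interval -2.33 to 0.82). In WT they were 0.65 for *Tlr9* and -0.33 for *Tlr6*.

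The difference in time course between genotypes was tested as an interaction. From day 0 to day 3 the difference between DKI and WT grew by 3.44 for *Tlr1* (SE 0.52, limma adjusted p = 0.00671) and by 1.31 for *Tlr6* (SE 0.25, adjusted p = 0.0212). The *Tlr1* term was called without each of the 12 libraries in turn. The *Tlr6* term had adjusted p between 0.0514 and 0.0637 without WT day 0 replicate 1 or 2, DKI day 0 replicate 2 or 3, or WT day 3 replicate 1 or 2. Of 10212 genes fitted, 1.2% were called with a positive and 1.7% with a negative term. The terms of *Tlr2* (1.25, adjusted p = 0.227), *Tlr3* (2.15, adjusted p = 0.236), *Tlr5* (0.82, adjusted p = 0.441), *Tlr4* (0.51, adjusted p = 0.719) and *Tlr9* (0.12, adjusted p = 0.974) were not called. In the later-named libraries alone *Tlr3*, which in the interactions passed the limit of 2 RPKM only through the DKI MDCs, was called at 1.53 (adjusted p = 0.0381), and *Tlr6* was not, at 1.06 (adjusted p = 0.0518).

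From day 0 to day 6 the term was 2.92 for *Tlr1* (SE 0.61, limma adjusted p = 0.0302) and was called, beside 0.898% of 10353 genes called positive and 1.9% negative. The *Tlr1* adjusted p was between 0.0579 and 0.0834 without any 1 of the 6 day 0 libraries or without WT day 6 replicate 1 or 3. The *Tlr6* term was 1.21 (SE 0.29, adjusted p = 0.0571), and the *Tlr3* term was 1.94 (SE 0.59, adjusted p = 0.113). With the pairs of the same number and day as a block, both were called, at adjusted p of 0.0279 and 0.0124. That block moved the count of genes called over all genes from 290 to 1401, and from 297 to 1040 for the day 3 interaction. Centring on medians moved the positive share of the genes called from 32.1% to 45.7%. From day 3 to day 6 no receptor and 0% of 9985 genes were called, with 89 at an unadjusted p under 0.05.

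The surface and endosomal receptors were then set side by side as classes, without a test. On day 3, 2 of 4 surface receptors fitted and 0 of 2 endosomal receptors were called higher in DKI, at median log2 fold changes of 1.12 and 1.10 against -0.11 over all genes, of which 3.21% were called higher. On day 6 the counts were again 2 of 4 and 0 of 2, at medians of 0.87 and 0.44, beside 2.72% of all genes called higher. *Tlr3* on both days and *Tlr1* on day 6 passed the limit of 2 RPKM only through DKI. The *Tlr3* call on day 6 with the block makes the endosomal count 1 of 2. *Tlr3* and *Tlr9* had unlike values within the endosomal class.

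By summed RPKM, the surface receptors exceeded *Tlr3* plus *Tlr9* in every library. The ratio was 20.5 ± 5.49 (SD, n = 3) in WT and 17.6 ± 4.93 in DKI on day 0. The values were 8.02 ± 4.66 and 12.3 ± 7.86 on day 3 and 4.55 ± 2.79 and 8.50 ± 3.26 on day 6. The ranges of WT and DKI overlapped on every day, while within same-numbered pairs the ratio was higher in DKI in 3 of 3 on day 3 and in 3 of 3 on day 6. The replicate 1 pair of day 3 was nearly equal, at 3.65 in WT and 3.81 in DKI, as was the replicate 2 pair of day 6, at 7.72 and 7.76. *Tlr2* made up 85.7% of the sum of the 7 receptors in WT on day 0, 48.9% on day 3 and 43.9% on day 6, and 83.2%, 46.3% and 31.7% in DKI. The surface sum on day 3 was 84.9 to 132 RPKM in WT and 156 to 378 RPKM in DKI, without overlap. On day 6 the ranges overlapped, at 91.1 to 106 RPKM in WT and 90.3 to 256 RPKM in DKI. The endosomal sum overlapped on day 3, at 6.57 to 31.4 RPKM in WT and 8.09 to 99.2 RPKM in DKI. It also overlapped on day 6, at 13.8 to 41.9 RPKM in WT and 10.8 to 45.1 RPKM in DKI.

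**Figure D4:**
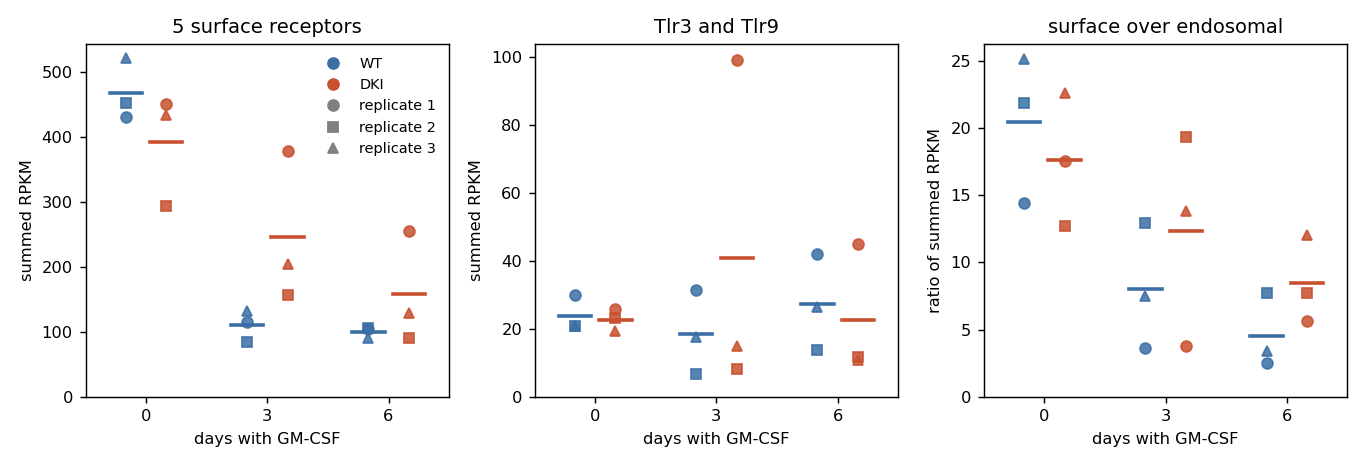
Summed RPKM of the 5 surface receptors (left), summed RPKM of *Tlr3* and *Tlr9* (middle) and their ratio (right) against days with GM-CSF, with 1 point for each library and a bar for the mean of 3. The mean surface sum is lower after culture in both genotypes, and the sum does not overlap between genotypes on day 3 but does on day 6, whereas the endosomal sum of 99.2 RPKM in DKI day 3 replicate 1 stands far above the rest.

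The genes that serve the receptors were read from 9 lists with 72 genes, of which 69 had values. *Tasl*, *Irak1* and *Ikbkg*, on chromosome X, were not analysed here. On day 3, 8 of 63 pathway genes fitted were called, 6 higher and 2 lower in DKI, and on day 6 14 of 62, 6 higher and 8 lower. Over all genes 3.21% were called higher and 4.21% lower on day 3, and 2.72% and 4.82% on day 6. The median log2 fold changes of the pathway genes were 0.16 and -0.06, against -0.11 and -0.17 over all genes. The split on day 6 turned with the scaling, to 7 higher and 3 lower under median centring and 7 higher and 5 lower under quantile normalization.

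Which genes were called depended on the fit. Under quantile normalization all 8 of day 3 remained. With the replicate block, 4 of the 8 remained on day 3, and 9 of the 14 on day 6 with 3 others (*Atf3*, *Ctsk* and *Tnf*) added. In the later-named libraries alone, 5 of the 8 remained, with 2 others (*Irak2* and *Socs1*), on day 3 and 1 of the 14 (*Irf7*) on day 6. Without any single library the count was between 1 and 11 on each day.

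Among co-receptors, *Cd180*, a receptor-like protein that binds MD-1 (*Ly86*), was higher in DKI on both days. It was at 31.9, 15.4 and 27.2 RPKM in WT and at 173, 109 and 85.2 RPKM in DKI on day 3, without overlap. The log2 fold change was 2.26 (SE 0.36, adjusted p = 0.0201) on day 3 and 2.00 (SE 0.38, adjusted p = 0.0338) on day 6. *Ly96*, which encodes MD-2, the lipopolysaccharide-binding partner of TLR4, was called on day 3 only, at 0.97 (adjusted p = 0.0495, or 0.0816 with the block), and was at 0.39 (adjusted p = 0.247) on day 6. *Cd14*, which hands lipopolysaccharide to MD-2, was at 0.95 (adjusted p = 0.175) and 1.19 (adjusted p = 0.246). In all, 2 of 6 co-receptors were called on day 3 and 1 of 6 on day 6.

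Of the proteases that cleave endosomal receptors, 3 of 5 were called higher on each day, and the list had medians of 2.52 and 2.27. *Ctsl*, cathepsin L, was at 91.0, 73.1 and 276 RPKM in WT and at 1419, 1656 and 1167 RPKM in DKI on day 3. Its log2 fold change was 3.50 (SE 0.51, adjusted p = 0.0165) on day 3 and 3.66 (SE 0.40, adjusted p = 0.00978) on day 6. *Ctsb*, cathepsin B, was at 2.39 (adjusted p = 0.0292) and 2.53 (adjusted p = 0.0183). *Lgmn*, asparagine endopeptidase, was at 2.80 (adjusted p = 0.0415) and 2.27 (adjusted p = 0.0303), and neither *Lgmn* value nor the day 3 *Ctsb* value was called with the block (adjusted p of 0.0941, 0.0533 and 0.0742). *Ctss* and *Ctsk* were not called without the block, and *Ctsk* was called higher on day 6 with it (adjusted p = 0.0419). Between day 0 and day 3 all 5 proteases were called higher in DKI cells, beside 13.1% of all genes. In WT cells only *Ctss* was called higher, at 1.53 (adjusted p = 0.00102), beside 20.3% of all genes. No interaction value for the proteases is given here.

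Of the folding and trafficking genes, 0 of 6 were called on day 3 and 1 of 6 on day 6. *Unc93b1*, the transporter of the endosomal receptors, was at 157, 118 and 185 RPKM in WT and at 456, 224 and 312 RPKM in DKI on day 3. The groups did not overlap, and the log2 fold change was 1.07 (SE 0.31, adjusted p = 0.0964). *Rab7b*, a small GTPase of late endosomes, was called higher on day 6, at 1.94 (SE 0.38, adjusted p = 0.0372). Of the adaptors, *Pik3ap1* (BCAP) was the only gene of 5 called, on day 3, at 1.79 (SE 0.31, adjusted p = 0.0254, or 0.0544 with the block). *Myd88* was at -0.55 (adjusted p = 0.152) and *Ticam1* at -0.50 (adjusted p = 0.0797) on day 3.

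Transcription factors were mostly lower in DKI where they were called. *Rel* was at 26.4, 54.0 and 32.8 RPKM in WT and at 9.85, 11.4 and 11.2 RPKM in DKI on day 3, a log2 fold change of -1.65 (SE 0.26, adjusted p = 0.0211). *Irf5*, an MYD88-dependent factor, was at -1.15 (SE 0.18, adjusted p = 0.0197) on day 3 and -0.95 (adjusted p = 0.0362, or 0.0534 with the block) on day 6. On day 6 *Rel* (-2.01, adjusted p = 0.0296), *Nfkb1* (-1.504, adjusted p = 0.0268) and *Nfkb2* (-1.66, adjusted p = 0.0476, or 0.0536 with the block) were also lower. *Irf7* was higher, at 5.13 (SE 1.07, adjusted p = 0.0415). These were 2 of 9 factors on day 3 and 5 of 9 on day 6. The *Nfkb2* call was kept under 2 of 7 alternatives and in 1 of 6 fits without 1 library. Under median centring *Irf5* and *Nfkb2* were not called on day 6.

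Of 13 kinases and ubiquitin ligases, none was called on day 3 and *Irak2* was called lower on day 6, at -0.67 (adjusted p = 0.0410, or 0.0591 with the block). This call was kept under 1 of 7 alternatives and in 0 of 6 fits without 1 library. Of 12 inhibitors, none was called on day 3. On day 6 *Nfkbia*, which retains NF-kB in the cytoplasm (-1.72, adjusted p = 0.0405), and *Socs1*, which restrains cytokine signalling (-1.64, adjusted p = 0.0268), were lower. Under median centring neither *Nfkbia* nor *Irak2* was called on day 6. Of 10 cytokine and effector genes, 7 were fitted on day 3 and 5 on day 6, and none was called without the block. With the block, *Tnf* of these genes and *Atf3* of the inhibitors were called on day 6. *Tlr12*, a receptor for profilin that is not among the 10 genes, was at 2.77, 1.49 and 3.92 RPKM in WT and at 0.367, 0.0807 and 0.118 RPKM in DKI on day 6. It passed the limit of 2 RPKM only through WT. The log2 fold change was -1.60 (SE 0.31, adjusted p = 0.0365, or 0.05004 with the block), a call kept under 2 of 7 alternatives and without 1 of 6 libraries, and *Tlr11* was under the limit on both days.

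**Figure D5:**
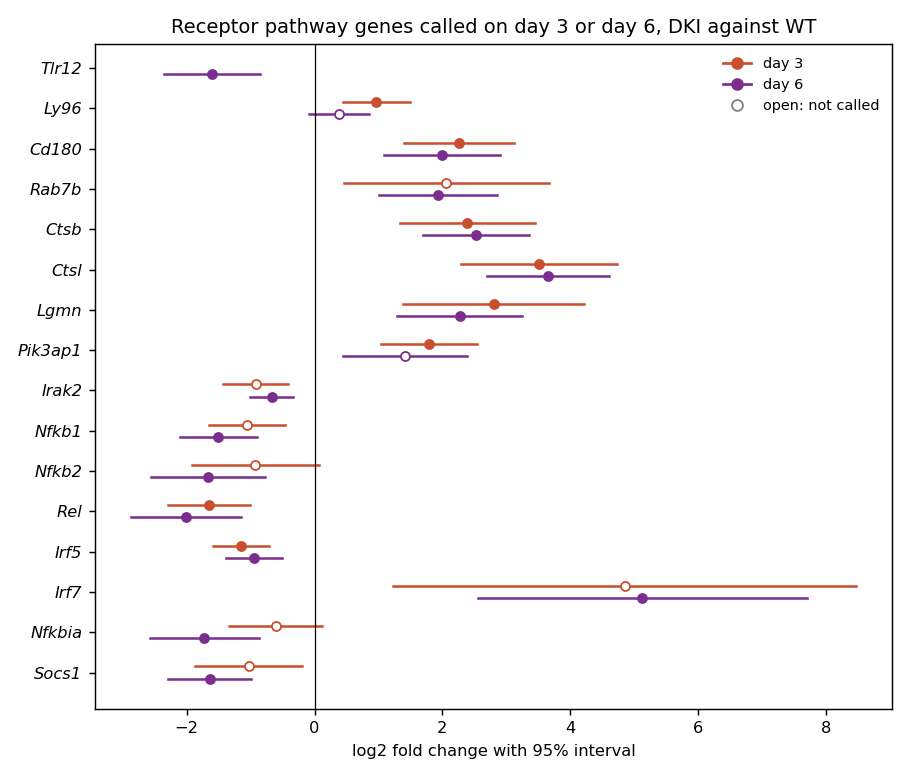
Log2 fold change of DKI against WT on the log2(RPKM + 1) scale, with 95% intervals, for the 16 genes of the pathway lists called on day 3 or day 6, where open points were not called on that day. The 3 proteases, *Cd180* and *Irf7* lie right of 0, *Irf7* with the widest intervals, and *Rel*, *Nfkb1*, *Nfkb2*, *Irf5*, *Nfkbia* and *Socs1* lie left of it.

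In the first 3 days in WT, 31 of 63 pathway genes were called, 6 higher and 25 lower, where 20.3% of all genes were called higher and 22.8% lower. The largest falls were in *Ptgs2*, the inducible cyclooxygenase (-5.64), *Cxcl10* (-4.33), *Lbp* (-4.11), which carries lipopolysaccharide, *Cd14* (-3.64) and *Tnfaip3* (-3.17), an inhibitor of NF-kB. *Ptgs2* and *Lbp* passed the limit of 2 RPKM only through day 0, and *Socs1* only through day 3. The largest rises were in *Cd36*, a scavenger receptor (5.19), *Socs1* (5.12) and *Ccl5*, a chemokine (5.06). In DKI, 27 of 63 were called, 8 higher and 19 lower, where 13.1% of all genes were called higher and 21.1% lower.

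For each receptor the genes with the most similar profile over the 18 libraries were found among 10417 genes, by the root mean square difference of centred log2(RPKM + 1). *Tlr1* was nearest to *Trim30c* (0.33) and *Sash1* (0.48), and *Tlr6* to *Slc31a1* (0.15) and *Dram1* (0.20). *Tlr3* was nearest to *Irgm2* and *Ddx58* (both 0.37), which are interferon-inducible. *Tlr4* was nearest to *Litaf* (0.21) and *Mcfd2* (0.28), and *Tlr5* to *Arhgap17* (0.24) and *Kansl1l* (0.30). *Tlr2* was nearest to *Sorl1* (0.47) and *Ly6c1* (0.51), and *Tlr9* to *Arl5c* (0.51) and *Uvrag* (0.66). No receptor was among the 2 nearest genes of another.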

How the data were processed

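Single-end reads were aligned to mm10 with Subread and counted on RefSeq genes with featureCounts by the authors, who deposited RPKM values. Versions, strand and the handling of reads matching several genes are not given in the sources used here. Of 20298 genes, 20082 matched RefSeq by identifier. Depth was estimated from low values of 771 single-exon genes (86.2% within 0.1 reads of a whole number, 20% by chance). Reads could not be recovered for every gene, so no count test was run.

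log2(RPKM + 1) was fitted with limma 3.58.1 (R 4.3.3, eBayes with trend) on the libraries of each comparison, for genes with a mean above 2 RPKM in at least 1 group. Calls needed a fold change above 1.5, which understates low genes, and an adjusted p (Benjamini-Hochberg) under 0.05. The fit was run on simulated data with the same noise level for every gene, so that run does not bear on the calls of single genes here. Alternatives were a pseudocount of 0.1, no filter, median centring, quantile normalization, RPKM rescaled to a common sum, all 18 libraries in one fit, the replicate block, leaving out each library and, chosen after seeing the data, the later-named libraries. Members and lists were chosen with earlier results of these data known. Named were all 7 receptors with values, pathway genes called in DKI against WT on day 3 or 6, large changes in WT and the 2 nearest genes. *Unc93b1*, *Cd14*, *Myd88* and *Ticam1* were named for their role.

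Replicate numbers come from the sample titles. Deviations of same-numbered libraries from group means correlated at 0.69 to 0.87 between genotypes on day 0. These values were 0.16 to 0.37 on day 3 and 0.34 to 0.41 on day 6. Between days 3 and 6 they were 0.12 to 0.74. The main fits did not use this pairing, which entered only in the alternative with the replicate block.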

Additional observations from a re-analysis of the deposited data

Results flagged for a closer look

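For 3 results the difference between DKI and WT changed with time in GM-CSF by a test of the change itself, the limma interaction over all genes. The difference grew by 3.44 on the log2(RPKM + 1) scale for *Tlr1* from day 0 to day 3 (SE 0.52, adjusted p = 0.00671) and by 2.92 from day 0 to day 6 (SE 0.61, adjusted p = 0.0302). It grew by 1.31 for *Tlr6* from day 0 to day 3 (SE 0.25, adjusted p = 0.0212). The day 0 libraries enter both *Tlr1* values. The groups of 3 were too small for a search for single outlying libraries.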

How the results depend on the processing

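The number of receptors called was 2 on day 3 and 2 on day 6 for DKI against WT. Without any single library it was 0 to 2 on either day, without the filter it was 0 on day 6, and in the later-named libraries it was 1 on day 3 and 0 on day 6. For day 3 against day 0 it was 3 in WT, or 3 to 4 without a library, and 4 in DKI, or 2 without the filter and 1 to 5 without a library. For the day 3 interaction it was 2, or 1 to 2 without a library. For the day 6 interaction it was 1, with 0 without the filter, 2 under median centring, quantile normalization, all 18 libraries in one fit or the later-named libraries, 3 with the replicate block, and 0 to 2 without a library. In one fit of all 18 libraries *Tlr3* was called higher in DKI on days 3 and 6 (limma adjusted p = 0.0289 and 0.0404).

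Where replicate numbers pair the libraries, the block changed the calls of *Tlr3* on day 6 and of *Tlr3* and *Tlr6* in the day 6 interaction and no other call of the 7 receptors. It also ended the day 6 call of *Tlr12* and those pathway calls whose blocked adjusted p the report gives. Between days 0 and 3 the libraries share only a number (r from -0.21 to 0.18), and the block there called *Tlr6* higher in DKI (adjusted p = 0.0479). Over all genes, DKI against WT gave 723 calls on day 3 and 742 on day 6, or 358 and 187 without the filter, 1350 and 1545 in one fit of all libraries, and 369 and 38 in the later-named libraries. Leaving out 1 library gave 197 to 715 calls on day 3, with the fewest without WT replicate 1 (197), 2 (216) or 3 (205) and 415 and 432 without DKI replicate 2 or 3. On day 6 it gave 90 to 984, with 106 and 107 without WT replicate 1 or 3 and 251 and 90 without DKI replicate 1 or 3. By level, the log2 ratio of mean *Tlr4* RPKM in WT on day 6 to day 0 was 0.48, or 0.34 after rescaling. The cause was not tested. No called value changed direction. *Tlr3* on day 0 rested on few reads, about 4 to 49 in a library.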
